A study of Homo sapiens with 4 samples.

Results

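The expression of 10 genes of the heat shock response was followed through 4 RNA-seq libraries of U87MG cells, an established human glioblastoma (GBM) line. They are the transcription factor gene *HSF1*, the HSP70 genes *HSPA1A* and *HSPA1B*, the HSP90 genes *HSP90AA1* and *HSP90AB1*, the HSP110 gene *HSPH1*, the HSP40 gene *DNAJB1*, the small heat shock gene *HSPB1*, and the partner genes *BAG3* and *VCP*. These 10 genes were chosen by name, for their place in the pathway that links HDAC6 and HSP90 to the heat shock response, out of 58226 gene IDs. Earlier results of these data were known when they and the gene lists used below were chosen. Counts were present for 8 of them, whereas *HSPA1A* and *HSPA1B* were listed at 0 in every library.

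The libraries were 1 per condition, and all RNA was taken 72 h after siRNA transfection. R-U87MG cells, a temozolomide (TMZ)-resistant derivative kept in 50 µM TMZ, received non-targeting siRNA (si-NC) or a pool of siRNAs against *HDAC6* (si-HDAC6). Parental U87MG cells received si-NC or siRNA against the long non-coding RNA *LINC00461* (si-*LINC00461*). The control and the *HDAC6*-depleted library of R-U87MG held 16639551 and 12596072 counts, and the control and the *LINC00461*-depleted library of U87MG 20027866 and 17777046. With 1 library per condition no difference has a replicate check, and every interval below is a 95% exact binomial (Clopper-Pearson) interval that covers counting error only. In bulk RNA, fewer cells of a kind and less RNA per cell cannot be told apart.

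HSF1 is held inactive by chaperones in unstressed cells. When unfolded proteins engage the chaperones, HSF1 forms trimers, enters the nucleus and binds heat shock elements, which are inverted repeats of the triplet GAA, in the promoters of chaperone genes. HDAC6 is a cytoplasmic deacetylase that deacetylates HSP90 and binds ubiquitin, and it is found in a complex with HSP90, HSF1 and the ATPase VCP, from which HSF1 is released when ubiquitinated proteins bind HDAC6. HSP90 keeps many kinases and other growth regulators folded, which is why it has been studied as a drug target in glioma.

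The letters that HSF1 recognises are shown first because they are the known link between the regulator and its target genes. Of the 9 genes searched, 6 hold at least 2 units of the element near a start site, beside 13.5% of 35116 promoters. Only *HSP90AA1* and *HSP90AB1* among them hold 3 units, beside 0.490% of promoters. These shares are per promoter, and a gene with several promoters has more places for a match. RefSeq promoters (GRCh38.p14, 250 bases before to 50 bases after an annotated start) were at hand for 9 of the 10 genes, the exception being *HSF1*. They were searched on both strands for GAANNTTC or TTCNNGAA (2 units of the element) and for GAANNTTCNNGAA or TTCNNGAANNTTC (3 units, each of which also holds 2 overlapping matches of the shorter form). Each window below is written 5′ to 3′ on the strand of the gene, with the GAA and TTC units in capitals. Positions count from 0 at the annotated start.

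*HSPA1A*, chr6:31815426-31815455, plus strand, match at position -106: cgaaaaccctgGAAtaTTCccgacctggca
*HSPA1B*, chr6:31827622-31827651, plus strand, match at position -105: cgaaacccctgGAAtaTTCccgacctggca
*HSP90AA1*, chr14:102087112-102087140, minus strand, match at position -88: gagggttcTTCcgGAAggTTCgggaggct
*HSP90AA1*, chr14:102087094-102087123, minus strand, match at position -68: gttcgggaggcTTCtgGAAaaagcgccgcg
*HSP90AB1*, chr6:44247770-44247798, plus strand, match at position -165: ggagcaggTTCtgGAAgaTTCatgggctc
*HSP90AB1*, chr6:44247823-44247851, plus strand, match at position -112: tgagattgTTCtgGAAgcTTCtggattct
*DNAJB1*, chr19:14518456-14518485, minus strand, match at position -77: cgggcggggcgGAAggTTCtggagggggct
*DNAJB1*, chr19:14518426-14518455, minus strand, match at position -47: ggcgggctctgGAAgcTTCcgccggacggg
*DNAJB1*, chr19:14517918-14517947, minus strand, a separate start, match at position 1: ccgctcggccaGAAgcTTCtagcatgtctg
*HSPB1*, chr7:76302480-76302509, plus strand, match at position -182: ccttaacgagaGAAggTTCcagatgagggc

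A 3-unit match was found in 0.490% of the 35116 promoters in the table and a 2-unit match in 13.5%. These are shares of promoters, not of genes, and a gene can have several starts. A match was held by 1 of 2 promoters of *HSP90AA1*, 1 of 3 of *HSP90AB1* and 2 of 3 of *DNAJB1*. Both HSP90 genes were among the few with 3 units, *HSP90AA1* with 1 such match and *HSP90AB1* with 2. The promoters of *HSPA1A*, *HSPA1B*, *DNAJB1* and *HSPB1* held 2-unit matches alone. No letters of these forms lay in the promoters of *HSPH1*, *BAG3* and *VCP* within this window. The promoters of *HSPA1A* and *HSPA1B* were identical at 277 of 301 aligned columns (92.0%). A match describes letters only and does not show binding.

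The targeted genes were checked first. *HDAC6* had 296 counts in R-U87MG si-NC, 67 in R-U87MG si-HDAC6, 649 in U87MG si-NC and 540 in U87MG si-*LINC00461*. It was thus lowest where it was targeted, with a log2 ratio of -1.74 (interval -2.16 to -1.36) in R-U87MG. *LINC00461* had 154, 80, 363 and 73 counts in the same order, a log2 ratio of -2.12 (-2.51 to -1.76) for si-*LINC00461* in U87MG. Among the glioma or astrocyte markers *VIM* and *CD44* were abundant and *NES* was present. *GFAP*, *S100B* and *SOX2* were at or near 0, with between 0 and 13 counts in each library.

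*HSP90AA1* (chr14:102080738-102139699) encodes the stress-inducible cytosolic HSP90 alpha and *HSP90AB1* (chr6:44246166-44253888) the constitutive HSP90 beta. *HSP90AA1* had 67817 counts in R-U87MG si-NC, 46781 in R-U87MG si-HDAC6, 17051 in U87MG si-NC and 11606 in U87MG si-*LINC00461*. *HSP90AB1* had 31234, 22619, 18601 and 16076 counts in that order. Both were higher in each R-U87MG library than in each U87MG library. Scaled to library depth and to the length of annotated exon (CPM per kb), the level of *HSP90AA1* was 777, 708, 162 and 124, and that of *HSP90AB1* was 629.9, 603, 312 and 303. The order of the pair therefore differed between the cell lines. The *HSP90AA1* to *HSP90AB1* ratio of levels per kb was 1.23 in R-U87MG si-NC and 1.17 in R-U87MG si-HDAC6, against 0.521 in U87MG si-NC and 0.410 in U87MG si-*LINC00461*.

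Both HSP90 genes have processed pseudogenes with which reads can be shared. Stretches of 50 bases found in another annotated gene made up 11.3% of the distinct stretches of *HSP90AA1* transcripts and 16.6% of those of *HSP90AB1*. *HSP90AA2P* had 1555, 988, 324 and 210 counts in the library order above, *AL365440.1* had 93, 32, 12 and 4, and *HSP90AA6P* had 18, 5, 1 and 2. *HSP90AB3P* had 456, 291, 161 and 155 counts and *HSP90AB2P* had 32, 20, 6 and 5. All these counts were small beside those of the parent genes and followed the same order of cell lines. Adding them put the log2 ratio of R-U87MG si-NC to U87MG si-NC at 2.002 for *HSP90AA1*, against 1.995 without them, and moved it from 0.75 to 0.76 for *HSP90AB1*. The value of *HSP90AA1* was not a whole count in the files and the reason was not tested. *HSP90AA1* also shared under 1% of its stretches each with *ESYT2*, *PNPT1*, *NME6*, *SHROOM1*, *ATXN2*, *ANKLE2*, *SLIRP*, *BEND7*, *TPGS1*, *CSNK2A1*, *SAR1A*, *LINC01285* and *COLEC12*, *DNAJB1* with *WDR31*, *MYOZ3* and *KIF6*, and *HSPB1* shared 5.84% with *HSPB1P1* and 1.91% with *HSPB1P2*, which held at most 1 count in a library.

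*HSPH1* (chr13:31134974-31162388) encodes HSP105, an HSP110 protein that serves HSP70 as nucleotide exchange factor. It had 4372 counts in R-U87MG si-NC, 3015 in R-U87MG si-HDAC6, 1299 in U87MG si-NC and 1762 in U87MG si-*LINC00461*. *DNAJB1* (chr19:14514770-14529770), an HSP40 that delivers clients to HSP70, had 5076, 3498, 3086 and 3242. In per-kb levels these were 31.3, 28.5, 7.73 and 11.8 for *HSPH1* and 83.1, 75.6, 42.0 and 49.7 for *DNAJB1*. Both R-U87MG libraries lay above both U87MG libraries for each gene. *HSPH1* was the lowest of the 8 measured genes per kb in both U87MG libraries, where it lay below *HSF1*, and the second lowest in both R-U87MG libraries, where it lay above *HSF1*.

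*HSPB1* (chr7:76302544-76304295) encodes HSP27, a small ATP-independent chaperone, and it ran the other way. Its counts were 2238 in R-U87MG si-NC, 2029 in R-U87MG si-HDAC6, 4932 in U87MG si-NC and 3721 in U87MG si-*LINC00461*, or 82.3, 98.6, 151 and 128 CPM per kb. Both U87MG libraries lay above both R-U87MG libraries. *BAG3* (chr10:119651370-119677819), an HSP70 co-chaperone that joins HSP70 to small heat shock proteins and to autophagy, had 4153, 3431, 2884 and 1746 counts, or 90.9, 99.2, 52.4 and 35.8 CPM per kb, and was higher in both R-U87MG libraries. *VCP* (chr9:35056064-35073249), the ATPase that pulls ubiquitinated proteins out of complexes, had 7904, 6452, 9655 and 7946 counts. Its level of 87.4, 94.2, 88.6 and 82.2 CPM per kb spanned a narrow range, and the cell lines overlapped on this scale.

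**Figure D1:**
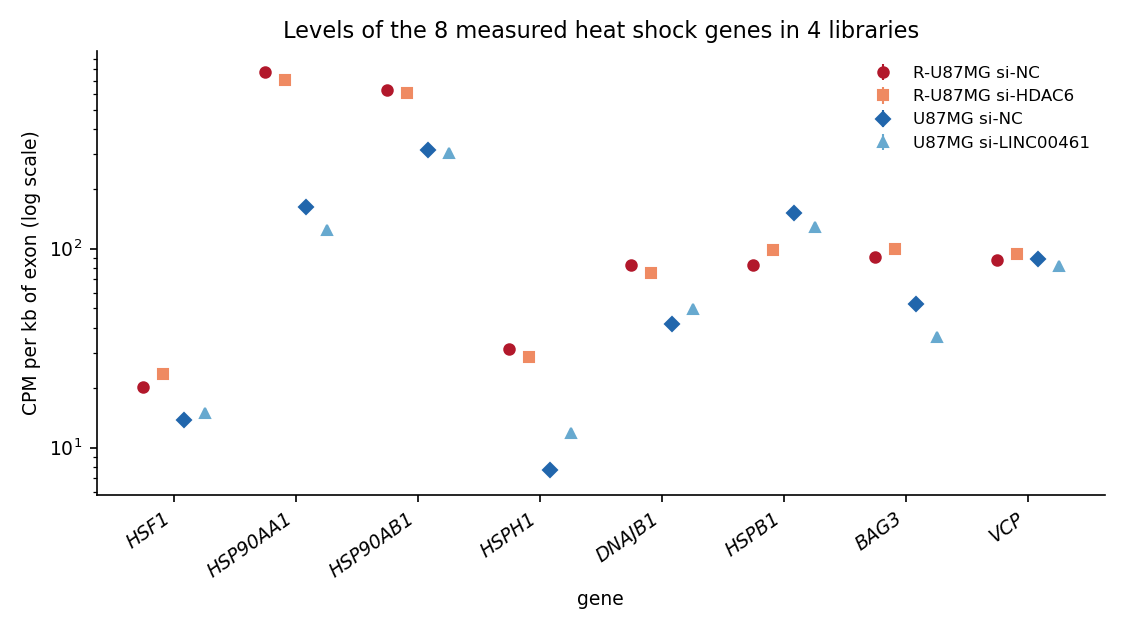
Levels of the 8 measured heat shock genes in 4 libraries, in CPM per kb of exon on a log axis, 1 point per library with 95% Clopper-Pearson intervals that are mostly smaller than the symbols. *HSP90AA1* sits at 777 and 708 in the R-U87MG libraries and at 162 and 124 in the U87MG libraries, whereas *VCP* stays between 82.2 and 94.2.

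*HSF1* (chr8:144291591-144314722), the regulator itself, was the least abundant per kb in the R-U87MG libraries. It had 1783 counts in R-U87MG si-NC, 1558 in R-U87MG si-HDAC6, 1467 in U87MG si-NC and 1407 in U87MG si-*LINC00461*, or 20.2, 23.3, 13.8 and 14.9 CPM per kb. The R-U87MG values were the higher ones. Messenger RNA of *HSF1* does not report its activity, which is set by the protein.

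The order of levels per kb began with the 2 HSP90 genes in both R-U87MG libraries. In R-U87MG si-NC it continued with *BAG3*, *VCP*, *DNAJB1* and *HSPB1*, which lay close together. There the intervals of *BAG3* (88.1 to 93.7) and *VCP* (85.4 to 89.3) overlapped, as did those of *DNAJB1* (80.8 to 85.4) and *HSPB1* (78.9 to 85.8). In U87MG si-*LINC00461* the second place was shared within counting error by *HSPB1* (124 to 132) and *HSP90AA1* (122 to 127). With the longest transcript as length in place of the union of exons, *DNAJB1* came before *VCP* and *BAG3* after it in R-U87MG si-NC, so the order among these 4 genes depended on the length used. So did the shared place in U87MG si-*LINC00461*, where *HSP90AA1* then stood at 186 and *HSPB1* at 144 CPM per kb. Together the 8 genes took 0.749% of all counts in R-U87MG si-NC, 0.710% in R-U87MG si-HDAC6, 0.294% in U87MG si-NC and 0.267% in U87MG si-*LINC00461*, most of them from the HSP90 genes.

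The first comparison asked how the heat shock genes stood after depletion of HDAC6 in the resistant cells. None of the 8 measured genes was as much as 1.5-fold lower or higher in R-U87MG si-HDAC6 than in R-U87MG si-NC. *HSP90AA1*, *DNAJB1* and *HSPH1* lay side by side at 0.905-, 0.904- and 0.905-fold of si-NC, and *HSP90AB1* at a log2 ratio of -0.07. *HSPB1* was 1.19-fold, *HSF1* 1.15-fold, *BAG3* 1.08-fold and *VCP* 1.07-fold of si-NC. Ratios were taken on the log2 scale of counts plus 0.5 over TMM-scaled library size, for the 13120 genes whose mean CPM in the pair reached 1.

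The log2 ratios ran from -0.15 (-0.21 to -0.08) for *DNAJB1* to 0.25 (0.16 to 0.34) for *HSPB1*, with a median of 0.01 against -0.01 over all genes compared. Each interval of the 8 genes lay on 1 side of 0, which says that the 2 libraries differed by more than counting error and nothing of replicate spread. The 90% of all genes in the middle of the distribution spanned -0.42 to 0.44, and every one of the 8 lay inside it. A change of at least 2-fold was seen in 0.747% of all genes downwards and 0.694% upwards, and one of at least 1.5-fold in 2.52% and 2.68%. At these rates a count of 0 among 8 genes is near the background.

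The wider chaperone network spanned a like range. Of 98 other heat shock and chaperone genes 83 were compared, 44 with ratios below 0 and 39 above, and none was 1.5-fold lower or higher, beside the 2.52% and 2.68% of all genes. The lowest was *FAF2*, a VCP adaptor, at -0.30 and the highest *HSPA6*, a strictly heat-inducible HSP70 gene, at 0.42, with 196 counts against 192. *SQSTM1*, which encodes the ubiquitin-binding autophagy receptor p62, stood at 0.36 (0.30 to 0.43) with 4265 counts against 4346 in the deeper si-NC library. Of 10 chaperonin genes, which encode the folding chambers of cytosol and mitochondria, 9 were below 0, from -0.20 for *CCT5* to 0.01 for *CCT3*. Other list ends were *HSPA13* at -0.18, *DNAJB14* at -0.10, *DNAJB9* at 0.40, *HSPB6* at -0.29, *HSPB8* at 0.19, *BAG4* at -0.12, *BAG1* at 0.26, *PPID* at -0.19, *STUB1* at 0.18 and *ZFAND2A* at -0.26. *HSP90B1* and *TRAP1*, the HSP90 genes of the endoplasmic reticulum and mitochondria, were at 0.08 and 0.12, and *HSF4* and *HSF2* at -0.04 and 0.02.

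The next comparison set si-*LINC00461* against si-NC in parental U87MG. *HSPH1* was 1.54-fold higher and *BAG3* fell short of a 1.5-fold decrease at 0.689-fold of si-NC. *HSP90AA1* was at 0.775-fold, *HSPB1* at 0.859-fold, *VCP* at 0.937-fold and *HSP90AB1* at 0.984-fold, whereas *DNAJB1* was at 1.20-fold and *HSF1* at 1.09-fold. The chaperone genes thus lay on both sides of 0, and *HSPH1* and *BAG3*, which both encode nucleotide exchange factors of HSP70, stood at opposite ends.

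In log2 ratios, *HSPH1* stood at 0.63 (0.52 to 0.73), *BAG3* at -0.54 (-0.62 to -0.45) and *HSP90AA1* at -0.37 (-0.40 to -0.33). The interval of *HSP90AB1*, -0.05 to 0.01, included 0. Its sign turned under upper-quartile scaling. The median of the 8 genes was -0.06, against a median near 0 of the 13210 genes compared. No gene of the 8 was 2-fold lower or higher, beside 8.17% of all genes lower and 5.42% higher. At 1.5-fold, 1 of 8 was higher beside 14.2% of all genes, and 0 of 8 lower beside 16.8%, which is near the background. The middle 90% of all genes spanned -1.33 to 1.04, wider than in the HDAC6 pair.

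Outside the 10 genes, 83 heat shock and chaperone genes were compared, of which 4 were 2-fold or more lower and 1 was 2-fold or more higher, beside 8.17% and 5.42% of all genes. *FKBP5*, an HSP90 co-chaperone of steroid receptors, went from 116 to 19 counts (-2.39, interval -3.21 to -1.72). *HSPB8*, the small heat shock partner of BAG3, went from 762 to 170 counts (-1.97, -2.23 to -1.74), in the library in which *BAG3* was also lower. *SERPINH1*, the collagen chaperone HSP47, went from 9738 to 3179 counts (-1.43), and *HSPA4L*, an HSP110 gene like *HSPH1*, from 583 to 240 (-1.09). *ATF3*, a stress-induced transcription factor, went from 434 to 809 counts (1.08, 0.92 to 1.26). The HSP70 and HSP110 genes ended with *HSPA12A* at 0.69, and *HSPA4*, a further HSP110 gene, was at 0.61.

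Other ends of the lists in U87MG were *DNAJB14* at -0.67 and *DNAJB5* at 0.92 among HSP40 genes, *CCT5* at -0.32 and *HSPE1* at 0.64 among chaperonins, *TRAP1* at -0.85 and *HSP90B1* at -0.09, *BAG2* at -0.25 and *BAG4* at 0.34, *ST13* at 0.40 among co-chaperones, *ZFAND2B* at -0.43 and *DERL1* at 0.71 among VCP adaptors and ubiquitin genes, *HSF4* at -0.43 and *HSBP1* at -0.01, and *HSPB7* at -0.43. *DNAJB9* and *DNAJC3*, HSP40 genes of the endoplasmic reticulum, were at 0.84 and 0.88. Other chaperone genes of the endoplasmic reticulum did not share this rise. *DNAJB11* had 107 CPM in U87MG si-NC and 110 in U87MG si-*LINC00461*, and the HSP70 gene *HSPA5* had 1478 and 1270. The median of the 83 genes was -0.07.

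Other genes moved with this pair. The summed level of 4 proliferation markers was 741 CPM in the U87MG control and 116 CPM after *LINC00461* depletion, and all 4 were at least 2-fold lower, from *MKI67* at -2.86 to *CDK1* at -1.78. The summed level of 5 markers of other cell types was 5.99 CPM in the control and 27.2 CPM after depletion, of which *PECAM1* made up 433 of 484 counts in the latter, while *RBFOX3* was at 0 there and 3 of the 5 markers had over 3 counts in each library. *VIM* was at -0.98. The part of these shifts in the heat shock values was not tested.

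The si-NC libraries of both cell lines were then set side by side. *HSP90AA1* was 3.99-fold and *HSPH1* 3.37-fold higher in R-U87MG si-NC than in U87MG si-NC. *HSP90AB1* was 1.68-fold, *DNAJB1* 1.65-fold, *BAG3* 1.44-fold and *HSF1* 1.22-fold higher. *HSPB1* was at 0.455-fold and *VCP* at 0.821-fold. The authors scaled the R-U87MG and the U87MG libraries as separate pairs, and that scaling was undone before the comparison. Whether both pairs were cultured and sequenced together is not stated in the sources used here. The state of the cells, the TMZ in the medium and any difference in handling between the pairs cannot be told apart. The R-U87MG control also serves the HDAC6 pair and the U87MG control the *LINC00461* pair, so the ratios of the 3 comparisons are not independent.

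On the log2 scale *HSP90AA1* stood at 1.995 (1.97 to 2.02), *HSPH1* at 1.75 (1.66 to 1.84), *HSP90AB1* at 0.75 (0.73 to 0.78), *DNAJB1* at 0.72 (0.66 to 0.79), *BAG3* at 0.53 (0.46 to 0.60), *HSF1* at 0.28 (0.18 to 0.39), *VCP* at -0.29 (-0.33 to -0.24) and *HSPB1* at -1.14 (-1.21 to -1.06). Among the 13349 genes compared, *HSP90AA1* lay at percentile 97.8 and *HSPH1* at percentile 97.0. The median of the 8 was 0.63 against 0.02 over all genes. At 2-fold, 2 of 8 were higher, beside 11.2% of all genes, and 1 of 8 was lower, beside 15% of all genes. At 1.5-fold, 4 of 8 were higher beside 23.1%, and 1 of 8 was lower beside 25.1%.

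These ratios depended on the scaling more than those of the other pairs. With library totals in place of TMM, the median of all genes shifted by 0.26 on the log2 scale. The ratios of the 8 genes shifted with it, and the values that follow are not corrected for that shift. *HSPB1* then stood at -0.87, short of 2-fold, *HSP90AB1* at 1.02, past it, and *HSP90AA1* at 2.26. The split of all 2-fold calls moved from 1494 higher and 2008 lower to 2399 higher and 1494 lower. No sign of the 8 genes turned, but *VCP* then stood near 0, at -0.02.

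A stricter description uses both libraries of each line, of which 1 is a knockdown and not a replicate of the control. Both R-U87MG libraries were at least 2-fold above both U87MG libraries for 1 of the 8 genes, *HSP90AA1*, beside 6.01% of 13369 genes, and at least 2-fold below for 0 of 8, beside 9.9%. The nearest R-U87MG and U87MG values of *HSP90AA1* were 1.86 apart on the log2 scale. *HSPH1* came just under the limit at 0.99, its higher U87MG value being that of si-*LINC00461*. *HSP90AB1*, *BAG3*, *DNAJB1* and *HSF1* were 0.68, 0.53, 0.32 and 0.16 apart in the same direction. *HSPB1* was 0.66 apart and *VCP* 0.09 apart in the other. By the same 2-fold rule 11 of 85 other heat shock and chaperone gene IDs were higher and 3 lower, beside 6.01% and 9.9% of all genes.

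Around these genes, 13 of 84 other heat shock and chaperone genes compared were at least 2-fold higher in R-U87MG si-NC and 4 at least 2-fold lower, beside 11.2% and 15% of all genes, with 64 above 0, 20 below and a median of 0.33. With library totals the counts were 30 and 4, beside 2399 and 1494 of all 13349 genes. The list of chaperonins was of 1 direction. All 10 that were compared were at least 1.5-fold higher, beside 23.1% of all genes, from *CCT8* at 0.79 to *HSPD1*, the mitochondrial HSP60 gene, at 1.56 (13602 against 4614 counts), with *CCT6A* at 1.28 and *CCT5* at 1.04 also past 2-fold.

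Of the co-chaperones of HSP90 and HSP70, taken as 1 list, 5 of 17 were at least 2-fold higher, beside 11.2% of all genes. They were *CHORDC1* at 1.45, *TTC4* at 1.32, *FKBP5* at 1.27, *CACYBP* at 1.23 and *AHSA1*, the activator of the HSP90 ATPase, at 1.20. Others of the list differed little, such as *STIP1* at 0.22, *PTGES3* at 0.07, *CDC37* at -0.06 and *ST13* at -0.07. The ubiquitin ligase gene *STUB1* was lowest at -0.56. In the BAG family, *BAG1* stood at 1.28 and *BAG2* at 1.07 above *BAG3*, and *BAG5* at 0.35 was lowest.

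*HSPA6* had 192 counts in R-U87MG si-NC, 196 in R-U87MG si-HDAC6, 15 in U87MG si-NC and 10 in U87MG si-*LINC00461*. Its log2 ratio between the si-NC libraries was 3.64 (2.92 to 4.55), the highest of the listed genes. *HSPA6* is nearly silent in unstressed cells and has a near-identical copy, *HSPA7*, so its counts are uncertain. The other HSP70 genes ranged down to *HSPA2* at -0.72, and the constitutive *HSPA8* stood at 0.79 with 41314 against 23995 counts. The strictly endoplasmic *HSP90B1* was at 0.08 and *TRAP1* at 0.63.

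Among VCP adaptors and ubiquitin genes, *SQSTM1* had 4346, 4265, 981 and 978 counts in the library order above and stood at 2.15 (2.05 to 2.25). *ZFAND2A*, a heat- and arsenite-inducible proteasome adaptor, stood at 1.16, and *UBXN6*, a VCP cofactor, at -1.38 (1722 against 4491 counts). *VCP* itself lay between them at -0.29. *DNAJB9* at 0.97 and *DNAJB2* at -0.93 were the ends of the HSP40 list, *HSF2* at 0.45 and *HSF4* at -1.57 those of the HSF family, whose *HSF4* value was not a whole count. *HSPB7* had 3 counts in the R-U87MG control and 54 in the U87MG control, a log2 ratio of -3.96 with a counting interval of -6.49 to -2.54, and *HSPB8* stood at 0.07.

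The list of heat-inducible HSF1 targets outside the 10 genes, which overlaps several lists above, had 21 of 23 compared genes above 0, 6 of them at least 2-fold higher and 1 at least 2-fold lower, beside 11.2% and 15% of all genes. Its median was 0.77, against 0.02 over all genes, and library totals would raise both by 0.26. The 2 genes below 0 were *DEDD2* at -0.65, with 512 against 806 counts, and *SERPINH1*, with 3238 counts in R-U87MG si-NC, 2787 in R-U87MG si-HDAC6, 9738 in U87MG si-NC and 3179 in U87MG si-*LINC00461* (-1.58, interval -1.64 to -1.53). For *SERPINH1* it was U87MG si-NC that stood apart from the other libraries. The promoters of *HSPA6*, *CHORDC1* and *SERPINH1* hold 3-unit matches and are shown as examples, picked by the ratios of their genes. *HSPA6* was the highest and *SERPINH1* the lowest of this list, and *CHORDC1* the highest of the co-chaperones. Further listed genes hold such matches and are not shown, *HSPD1* and *HSPA8* with 2 each and *DNAJA1* and *DNAJB6* with 1 each.

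*HSPA6*, chr1:161524458-161524486, plus strand, match at position -74: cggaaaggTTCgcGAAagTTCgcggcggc
*CHORDC1*, chr11:90223084-90223112, minus strand, match at position -60: ccgGAAaaTTCgcGAAggTTCctGAAacg
*SERPINH1*, chr11:75562169-75562197, plus strand, match at position -76: ttccaactTTCcaGAAgtTTCtcgggacg

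Of the 9684 genes compared for which a RefSeq promoter was at hand, 50 held a 3-unit match. Of these 50, 10 (20%) were at least 2-fold higher in R-U87MG si-NC, beside 10.3% of the 9684. At least 2-fold lower were 7 of the 50, beside 1382 of the 9684. Without the 10 genes and the chaperone lists, 6 of 41 (14.6%) were higher and 6 lower. Of the 9 genes left out in this way, 4 (44.4%) were higher and 1 lower, with a median log2 ratio of 0.80. *HSP90AA1*, with 1 match of 3 units, stood at 1.995. *HSP90AB1*, with 2 such matches, stood at 0.75, or at 1.015 with library totals. *HSPH1*, *BAG3* and *VCP*, without a match in the window searched, stood at 1.75, 0.53 and -0.29, and sites outside the window were not searched. The part of the element in these ratios was not tested.

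Proliferation markers also differed between the si-NC libraries. Their summed level was 1396 CPM in R-U87MG si-NC, 1151 CPM in R-U87MG si-HDAC6 and 741 CPM in U87MG si-NC, and the 4 ratios between the si-NC libraries ran from 0.55 for *MKI67* to 1.22 for *CCNB1*. The markers of other cell types summed to 4.03 CPM in R-U87MG si-NC and 5.99 CPM in U87MG si-NC, with *PTPRC* at 1 and 0 counts and *RBFOX3* at 0 and 3. The part of these differences in the heat shock values was not tested. *HDAC6* (-1.13, interval -1.33 to -0.93) and *LINC00461* (-1.23, -1.51 to -0.96) were themselves lower in R-U87MG si-NC than in U87MG si-NC.

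The profile of the 8 genes over the 4 libraries, as the mean of their centred log2 CPM, was most like that of *NCOA5* (distance 0.018), *LRIF1* (0.019) and the pseudogene *RPL12P4* (0.026) among 13361 genes. *NCOA5* had 1497, 1169, 1016 and 881 counts in the library order above. The likeness rests on 4 points, and nothing further is read from it.

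*HSPA1A* (chr6:31815464-31817946) and *HSPA1B* (chr6:31827735-31830255) encode the same major inducible HSP70 protein and are the usual readout of HSF1 activity. Both, and their neighbour *HSPA1L*, were listed at 0 in all 4 libraries, and 71.3% of the 50-base stretches of *HSPA1A* transcripts occur in another gene. The zeros were shared by the surrounding region. Within 500 kb of the *HSPA1A* start 50 of 70 protein-coding genes (71.4%) were listed at 0 in every library, and within 1000 kb 66 of 96 (68.8%), against 16.0% of 19695 protein-coding genes elsewhere. From *CLIC1* to *AL645922.1* (chr6:31730581-31952048), 17 genes in a row had at most 3 counts.

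Genes that dividing cells use were among the empty ones. *TUBB*, *RPS18*, *CLIC1* and *VARS*, all on chromosome 6, were at 0 in every library, while *CSNK2B* and *BAG6* had at most 2 and 1 counts. Some genes on other chromosomes were also near 0, such as *POLR2A*, the largest subunit of RNA polymerase II, with 2 to 10 counts, *HYOU1* with 0 to 8, *DNAJA3* with 0 or 1 and *FAF1* with 0 to 2. A listed 0 for *HSPA1A* and *HSPA1B* therefore gives no level, limit or ratio for these genes, and the reason for the zeros was not tested. *HSP90AB1*, on the same chromosome arm, had 16076 to 31234 counts.

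**Figure D2:**
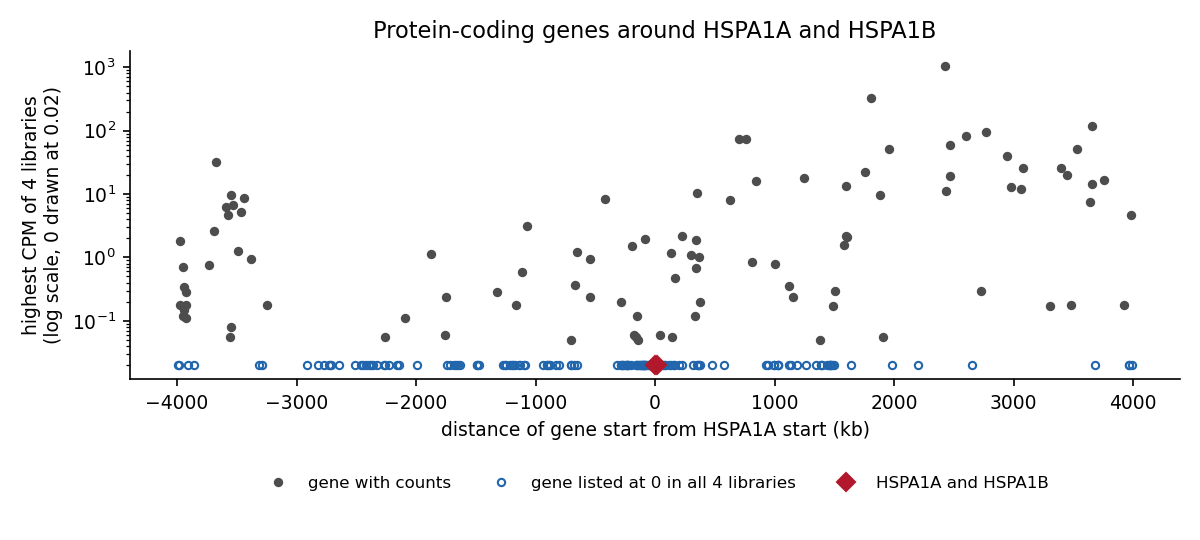
Highest level among the 4 libraries (CPM, log axis, values of 0 drawn at 0.02) of protein-coding genes by distance in kb of their start from the *HSPA1A* start. Open circles are genes listed at 0 in every library and red diamonds are *HSPA1A* and *HSPA1B*. Of the 70 genes within 500 kb, 50 are open circles.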

How the data were processed

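RNA-seq was performed on 4 libraries, 1 per condition. Strand-specific libraries were made and sequenced by a service company. The submitters' processing notes name bcl2fastq, Trimmomatic 0.36, HISAT2 and GRCh38.p13. The counting program, its annotation and its use of strand are not given in the sources used here. The authors deposited estimated counts (expected counts) of fragments per Ensembl gene, each multiplied by 1 scale factor per library. Each value was divided by its factor (0.869, 1.15, 0.939 and 1.06 in the order R-U87MG si-NC, R-U87MG si-HDAC6, U87MG si-NC, U87MG si-*LINC00461*) and rounded. Between 94.1% and 94.5% of values above 0 lay within 0.02 of a whole count, or within the rounding of the files. Totals per library are given above, and a floor of 3 counts corresponds to 0.150 to 0.238 CPM.

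Symbols, positions and exon lengths came from GENCODE 29 (57888 of 58226 IDs matched). Libraries were scaled with TMM (edgeR 4.0.16, R 4.3.3) within each pair, or over all 4 for the descriptions across both lines. Log2 ratios used a pseudocount of 0.5, which understates the changes of low genes. Genes were compared if their mean CPM in the pair was 1 or more. Intervals are 95% Clopper-Pearson intervals (scipy 1.17.1). No test was possible with 1 library per condition, and a change was called at 2-fold or, as a second limit, at 1.5-fold. The 10 genes and the lists were chosen with earlier results of these data known. Named were all 10 genes, the ends of each list, listed genes past 2-fold, the targeted genes, the 3 nearest profiles and genes sharing 50-base stretches. A few further list genes were named after their values were seen. The 2 gene IDs of *HSPA14* were summed. The ratio code was tested on simulated data. Alternatives were other scalings (DESeq2 1.42.0 size factors among them), pseudocounts, filters, thinning, thresholds and exon lengths.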

Additional observations from a re-analysis of the deposited data

How the results depend on the processing

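No paired analysis was possible because each condition had 1 library. The direction of all 8 measured genes was the same under 8 alternatives in the HDAC6 pair and in the comparison of the si-NC libraries. In the latter, *VCP* came near 0 with library totals, at -0.02. In the *LINC00461* pair 7 of 8 genes kept their direction, the exception being *HSP90AB1* (-0.06 to 0.00). Among the alternatives, the CPM filters could not change a ratio of these genes, and the pseudocounts hardly could at counts as high as theirs. With library totals in place of TMM, the comparison of the si-NC libraries gave 0 of the 8 genes at least 2-fold lower and a median of 0.89. Of 84 other heat shock and chaperone genes, 34 were past 2-fold in either direction (17 with TMM). Beside them stood 2399 higher and 1494 lower of all 13349 genes with library totals, and 1494 and 2008 with TMM. The cause of the difference between the scalings was not tested. A 1.5-fold limit gave, by its construction, 4 of the 8 genes higher in that comparison. It put 43 of the 84 other genes past it in either direction, beside 23.1% of all genes higher and 25.1% lower. In the *LINC00461* pair 1 of the 8 genes was higher and 15 of 83 other genes were past it in either direction. Beside them stood 14.2% of all genes higher and 16.8% lower. With the longest transcript as length, 3 of the 8 genes kept their rank of level in all 4 libraries. DESeq2 size factors, upper-quartile scaling, other pseudocounts, a CPM filter of 5 or none, thinning and the mean in place of the median changed no count of genes by over 1.5 times and moved no median beyond counting error. Some single ratios did move beyond it. With upper-quartile scaling these were *HSP90AA1* (1.951), *HSP90AB1* (0.707) and *VCP* (-0.330) between the si-NC libraries. With DESeq2 size factors it was *HSP90AB1* (-0.056) in the *LINC00461* pair. Taking *HSPA1A* and *HSPA1B* as 1 gene could give no value, since both are listed at 0. Chosen after seeing the data, the authors' own scaling moved none of 16 ratios beyond counting error, nor did adding pseudogene counts to the HSP90 genes.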
